A study of Solanum pimpinellifolium with 6 samples.

Results

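The CRABS CLAW and YABBY genes of tomato were examined in young fruits of an RNAi line and its nontransgenic sibling. A gene was a member if the name in its deposited description, the text ahead of the annotation tag, held CRABS CLAW or YABBY. This gave 9 of 34723 genes with values. The deposited descriptions list a YABBY domain for the same 9 genes and for no other. Of the 9, 5 are named CRABS CLAW (Fragment) and 4 are named YABBY-like transcription factor CRABS CLAW-like protein. Because every member carries the words CRABS CLAW, the names do not separate the branches of the family, and members are called here by identifier. Solyc08g079100 was chosen by its FPKM values, which differ between the labelled groups, so its difference is described without a test. The other 8 were taken by name alone.

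YABBY proteins are plant transcription factors with a zinc finger and a helix-loop-helix domain related to the HMG box. In Arabidopsis most family members are expressed on the lower (abaxial) side of leaves and floral organs, where they help to set lamina growth and organ polarity and to hold back meristem genes of the KNOX class. CRABS CLAW, the founding member in Arabidopsis, shapes the carpel and is needed for nectaries, and INNER NO OUTER is needed for the outer integument of the ovule. The young tomato fruit is a pollinated ovary, so its wall is carpel tissue and its seeds form from ovules.

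The plants were Solanum pimpinellifolium LA1589, a wild currant tomato, 2 months old by the labels and grown in a phytotron. Fruits were taken 2 days post anthesis from flowers pollinated by hand. The 3 libraries labelled line 207 came from a transgenic RNAi line against the zinc finger gene SlZFP2, and the 3 labelled sibling came from its wild-type, nontransgenic sibling. Line 207 is a single transgenic line, and the promoter of its RNAi construct is not given in the sources used here. Levels were taken as FPKM, in which fragments are divided by length and by the depth of the library. This is meant to allow comparison between genes and between libraries. Sums over all genes still ran from 785040 to 1179445 FPKM, so comparisons between libraries depend on the scaling.

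The labels and the libraries were checked first. The targeted gene, Solyc07g053570 (zinc finger family protein), stood at 10.3, 9.03 and 7.45 FPKM in labelled line 207. It stood at 2.89, 3.05 and 0.00147 FPKM in those labelled sibling, so the labelled knockdown libraries were the higher ones, opposite to a knockdown. The difference did not pass (limma adjusted p = 0.112). In the authors' deposited table its q is 1, the value given there to genes without a test. Whether transcripts of an RNAi construct add to this gene's value was not tested. The groups are therefore named by their labels, and every direction is a direction between labels. Relative depth was taken from the most frequent ratio of low values to sibling replicate 1. It was 0.382 to 0.785 in labelled line 207 and 0.796 to 1 in the labelled siblings. Although 1 protocol label names shoot tips, the sample labels name fruits. Both tissues are known to express YABBY genes. The 3 genes described as Agamous MADS-box, taken as carpel markers, summed to between 0.000922 and 36.3 FPKM in labelled siblings. In labelled line 207 they summed to between 0.0124 and 72.0 FPKM, and each group had 1 library near 0. Only 1 of the 3 was tested, and it did not pass. These words left out Solyc02g071730 (MADS-box transcription factor AGAMOUS). That gene was at 21.0 ± 3.92 against 71.9 ± 16.3 FPKM (SD, n = 3) and passed as higher in labelled line 207 (limma adjusted p = 0.00877). The 9 knotted homeobox genes were taken by name as markers of shoot tips. They summed to 154 to 185 FPKM in labelled siblings and 170 to 219 FPKM in labelled line 207. Solyc07g007120 (homeobox protein knotted-1-like 3) was the largest part of these sums, at means of 95.2 and 145 FPKM. The median log2 difference of the 7 tested was -0.68, and 0 passed, so the higher sum is not shared by most of them. The 4 Rubisco small chain genes were taken by name as markers of leaf tissue. They summed to 7123 to 8128 FPKM in labelled siblings and 2465 to 3068 FPKM in labelled line 207. Of the 3 that were tested, 3 passed as lower in labelled line 207, where 5.04% of all tested genes did. The 11 pollen-specific and anther-specific genes summed to 47.6 to 80.4 FPKM in labelled siblings and 24.0 to 25.4 FPKM in labelled line 207. Of the 5 tested, 1 passed as lower, against the same 5.04% of all tested genes. The anther-specific gene among them, Solyc02g078370 (TA-29), went the other way, at 1.62, 1.03 and 0 FPKM in labelled siblings and 6.36, 4.84 and 5.25 FPKM in labelled line 207 (adjusted p = 0.0775). Whether these marker differences reflect tissue make-up was not tested, and neither was their part in the family's values. In whole-organ RNA, fewer cells of a type and less RNA per cell cannot be told apart.

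Solyc08g079100 (CRABS CLAW (Fragment)) reached 103, 84.1 and 87.3 FPKM in the 3 labelled siblings. In the 3 labelled line 207 libraries it was at 0.000193, 10.5 and 6.83e-05 FPKM. The groups did not overlap, and the lowest labelled sibling stood well above line 207 replicate 2, the only labelled line 207 library with more than a trace. In each labelled sibling it stood above at least 95.5% of all genes. Means were 91.5 ± 10.2 FPKM (SD, n = 3) in labelled siblings and 3.51 ± 6.07 FPKM (SD, n = 3) in labelled line 207, a 26.1-fold ratio carried on the line 207 side by replicate 2 alone. The ratio was 17.4-fold without line 207 replicate 1 or without replicate 3. Without replicate 2 the remaining labelled line 207 libraries are near 0 and no ratio is given. On the log2(FPKM + 1) scale the difference was -5.35, the lowest but 14 of the 15766 genes tested. That place, like the lack of overlap, follows from choosing the gene by its values. The size of the difference depends on the pseudocount (-7.59 with 0.1 and -3.72 with 5). The authors' deposited table gives this gene a q of 0.192.

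**Figure D1:**
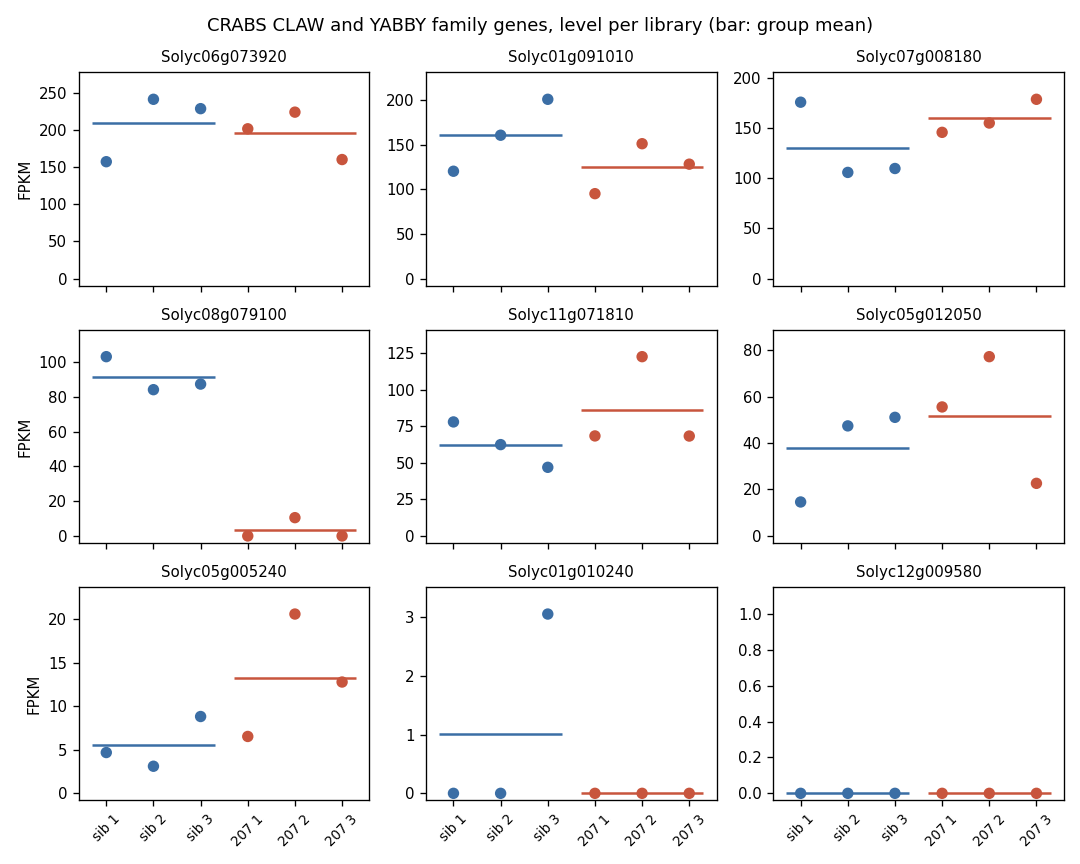
Level of each of the 9 family genes in FPKM (vertical axes start at 0 and differ between panels) in the 3 libraries labelled sibling (blue) and the 3 labelled line 207 (red), with bars at group means. Solyc08g079100 is the panel whose groups are apart, at 84.1 FPKM or more against 10.5 FPKM or less.

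The values of Solyc08g079100 in line 207 replicates 1 and 3 belong to a class of estimates seen in every library. Each library held between 2344 and 2567 genes above 0 but under 0.001 FPKM, apart from the main body of genes, which lies around 1 to 100 FPKM. The limit of 0.001 FPKM was chosen after the values were seen. Such estimates also occur for genes that are well expressed in another library of the same group. In labelled line 207, 665 of 10812 genes with a library at 10 FPKM or more (6.15%) had another library in that near-zero class, and Solyc08g079100 is among them. In the labelled siblings this held for 361 of 10590 genes (3.41%). For genes at 50 FPKM or more in every library of one group, near-zero or 0 values in at least 2 libraries of the other were counted both ways. They were found in labelled line 207 for 18 of 1933 tested genes (0.931%) and in labelled siblings for 7 of 2009 (0.348%). With the limit set at 10 FPKM, and values of 0 not counted, 11 genes had them in labelled line 207 and 15 in labelled siblings. No shares were taken for these counts, so they cannot be set against those at 50 FPKM. Solyc08g079100 is itself among the 18 and among the 11. Outside the family, Solyc07g055920 (Agamous MADS-box transcription factor) had 1 such value beside well-expressed libraries of its own group. It was at 28.2, 0.000922 and 30.9 FPKM in labelled siblings. In labelled line 207 it was at 72.0, 70.9 and 0.0124 FPKM, the last above the limit. It is not among the genes counted for near-zero values in 2 libraries. Solyc08g079100 had its near-zero values in labelled line 207 libraries and in no labelled sibling, which follows from choosing it by its values. Whether these near-zero values are a loss of transcript or a feature of the estimation was not tested.

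**Figure D2:**
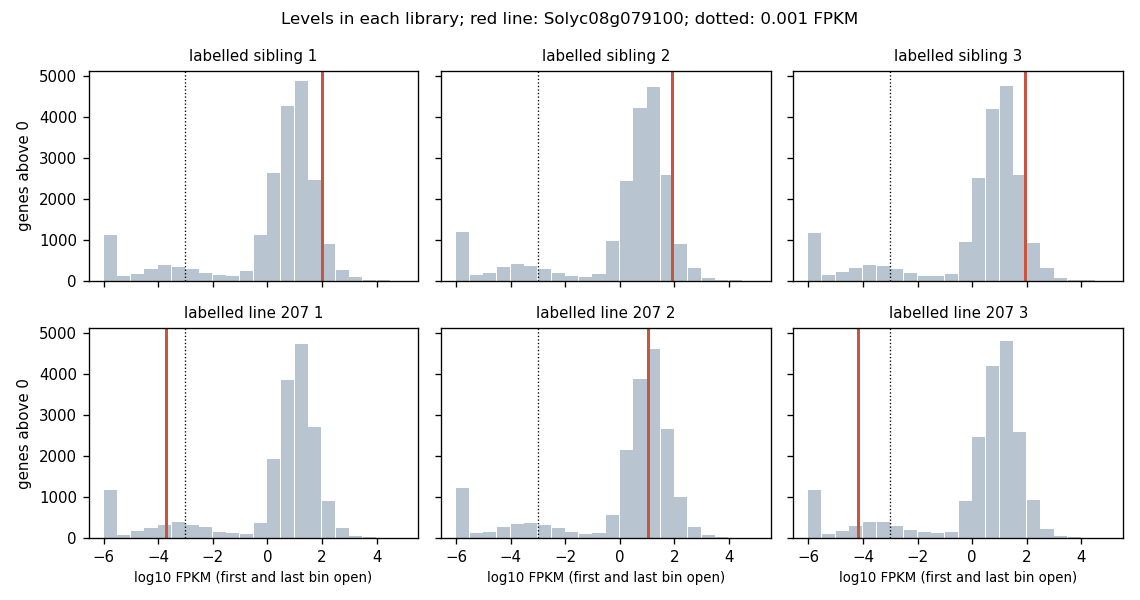
Number of genes (vertical axis) by log10 FPKM (horizontal axis, bins of 0.5) in each library, for genes above 0, with values below the first bin gathered in it. The red line marks Solyc08g079100, which lies in the main body in the 3 labelled siblings and in line 207 replicate 2, and left of the dotted line at 0.001 FPKM in line 207 replicates 1 and 3.

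The members covered a wide range of levels. Of the 9 members, 7 passed the filter of at least 1 FPKM in 3 or more libraries. In the labelled siblings the highest mean was that of Solyc06g073920 (209 FPKM), followed by Solyc01g091010 (160 FPKM) and Solyc07g008180 (131 FPKM), and the ranges of each of these neighbours overlapped. Solyc08g079100 came next, with a range that overlapped neither Solyc07g008180 above it nor Solyc11g071810 (62.4 FPKM) below it. Solyc11g071810 and Solyc05g012050 (37.7 FPKM) overlapped, whereas Solyc05g005240 (5.53 FPKM) lay below both. In labelled line 207 Solyc06g073920 was again first (195 FPKM). Solyc07g008180 (160 FPKM) and Solyc01g091010 (125 FPKM) followed in exchanged places, with overlapping ranges. Solyc08g079100, the fourth in labelled siblings, was the seventh here, with a range that overlapped that of Solyc05g005240 (13.3 FPKM).

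None of the 3 most abundant members passed between labels. All 3 are YABBY-like proteins by name. Solyc06g073920 was at 157, 241 and 229 FPKM in labelled siblings and at 202, 224 and 160 FPKM in labelled line 207. Solyc01g091010 was at 120, 160 and 201 FPKM and at 95.0, 151 and 128 FPKM, in the same order. The groups overlapped for both genes. Their log2 differences were -0.087 ± 0.22 (SE) and -0.36 ± 0.25 (SE), with limma adjusted p = 0.844 and 0.433. The intervals of the difference, at 95% confidence, allow folds of 0.654 to 1.36 for Solyc06g073920 and 0.516 to 1.18 for Solyc01g091010. Solyc07g008180 was at 176, 106 and 110 FPKM in labelled siblings and at 146, 155 and 179 FPKM in labelled line 207. Sibling replicate 1 stood with the labelled line 207 libraries, and the other 2 siblings below them. Its log2 difference was 0.33 ± 0.23 (SE; limma adjusted p = 0.426), with folds of 0.861 to 1.82 in the interval.

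The remaining 3 tested members were higher on average in labelled line 207, and none passed. Solyc11g071810 (CRABS CLAW (Fragment)) was at 77.9, 62.4 and 46.9 FPKM in labelled siblings and at 68.3, 123 and 68.3 FPKM in labelled line 207. Line 207 replicate 2 was the only library outside the siblings' range. The log2 difference was 0.44 ± 0.30 (SE; limma adjusted p = 0.412; interval 0.83-fold to 2.2-fold). Solyc05g012050 (CRABS CLAW (Fragment)) was at 14.6, 47.4 and 51.0 FPKM against 55.5, 77.2 and 22.6 FPKM. Each group held 1 low library, and within each group its coefficient of variation was 53.2% (labelled siblings) and 53.0% (labelled line 207), where tested genes of like level had medians of 21.9% and 18.9%. The log2 difference was 0.47 ± 0.60 (SE; limma adjusted p = 0.671), and the interval, 0.518-fold to 3.7-fold, is wide. Solyc05g005240 (YABBY-like by name) was at 4.68, 3.11 and 8.81 FPKM against 6.52, 20.6 and 12.8 FPKM. Its means, 5.53 ± 2.95 and 13.3 ± 7.04 FPKM (SD, n = 3), stood 2.4-fold apart, the largest ratio in this direction in the family, but line 207 replicate 1 lay inside the siblings' range. The log2 difference was 1.10 ± 0.55 (SE; limma adjusted p = 0.267), and the interval reaches from 0.865-fold to 5.28-fold.

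**Figure D3:**
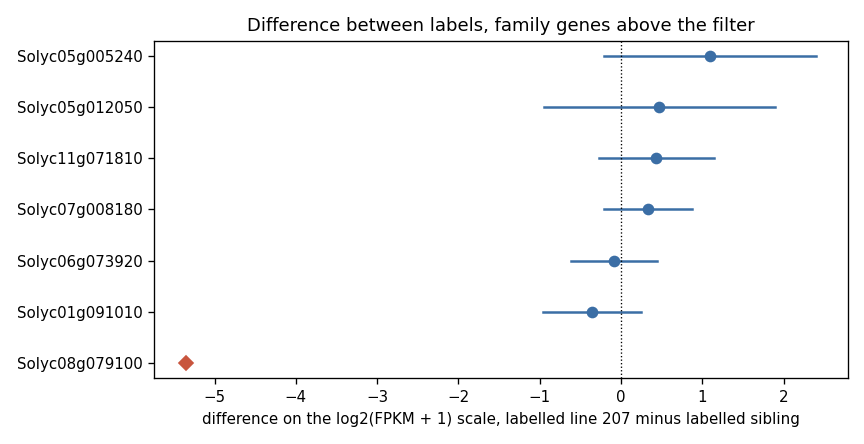
Difference between labels on the log2(FPKM + 1) scale (horizontal axis, labelled line 207 minus labelled sibling) for the 7 family genes that passed the filter. Lines are limma intervals at 95% confidence, and the red diamond, Solyc08g079100 at -5.35, is drawn without one because the gene was chosen for this difference. The 6 other intervals all include 0.

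Apart from Solyc08g079100, 0 of 6 tested members passed (limma, Benjamini-Hochberg adjusted p at most 0.05), where 10.1% of all 15766 tested genes did. With an unadjusted p under 0.05 the count was also 0 of 6, against 26.2% of all genes. The authors' deposited table puts 0 of these 6 at a q of at most 0.05, against 28.4% of the 9583 genes with a q under 1. The groups overlapped for each of the 6 genes, whereas they did not overlap for 33.2% of all tested genes. The median log2 difference was 0.38 over these 6 members, 4 of them higher and 2 lower on average, and -0.087 over all tested genes. With 6 genes and intervals this wide, these counts do not show that the other members were equal between the labels. The sign of Solyc06g073920 turned with quantile normalization and with equal library sums. Scaled to equal library sums, again 0 of 6 passed, with the 6 log2 differences from -0.019 (Solyc01g091010) to 1.40 (Solyc05g005240). That scaling moved the median of all tested genes to 0.20, and of the 1810 genes then called 1360 were higher and 450 lower in labelled line 207, against 790 and 795 with the values as deposited. Reads from related family members may have been divided between them in the authors' estimates, which adds to the uncertainty of each value.

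Solyc01g010240 and Solyc12g009580, both named CRABS CLAW (Fragment), were at or near the bottom of the range. Solyc12g009580 was listed at 0 in all 6 libraries. Solyc01g010240 was at 3.05 FPKM in sibling replicate 3 and listed at 0 in the other 5 libraries. Neither passed the filter, and the authors' deposited table gives both a q of 1, its value for genes without a test. In the labelled siblings the members named CRABS CLAW (Fragment) thus had means from 0 to 91.5 FPKM, all below the 3 abundant YABBY-like genes and some above the fourth, Solyc05g005240.

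The family total did not separate the labels as Solyc08g079100 did. Summed over the 9 members it was 654, 705 and 736 FPKM in labelled siblings and 573, 761 and 571 FPKM in labelled line 207. Line 207 replicate 2 held the highest total of all, and replicates 1 and 3 the lowest. Leaving out Solyc08g079100, the totals were 551, 621 and 649 FPKM against 573, 750 and 571 FPKM, and the groups overlapped. This depends on the scaling, since the FPKM of all genes summed to less in labelled line 207 (785040 to 924466) than in labelled siblings (1054762 to 1179445). As a share of that sum, the 8 members other than Solyc08g079100 made up 0.0522%, 0.0582% and 0.055% in labelled siblings and 0.0634%, 0.0812% and 0.0727% in labelled line 207, and the groups no longer overlapped. With equal library sums the median log2 difference of all tested genes was also above 0, at 0.20. A higher share in labelled line 207 is therefore not particular to these members. All 9 members together made up 0.062% to 0.0661% and 0.0634% to 0.0823%, with overlap. Solyc08g079100 made up 15.8%, 11.9% and 11.9% of the family total in labelled siblings and 1.38% in line 207 replicate 2. Solyc06g073920 took 24.1% to 34.2% in labelled siblings and 28.1% to 35.2% in labelled line 207. Solyc07g008180 took 14.9% to 26.9% and 20.4% to 31.4%. Within labelled line 207, replicate 2 was the highest of the 3 libraries for 6 of the 7 members that passed the filter, all but Solyc07g008180. That count includes Solyc08g079100, and the matching share over all tested genes was not taken. Replicate 2 also had the largest FPKM sum over all genes in its group (924466). Among the labelled siblings no library was highest for as many members, with replicates 1 and 3 highest for 3 each.

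**Figure D4:**
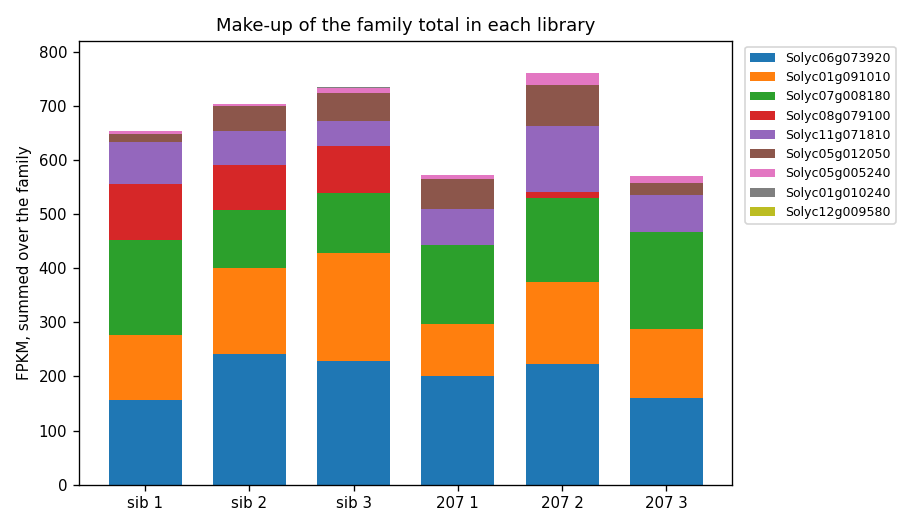
Stacked FPKM of the 9 family genes (vertical axis from 0) in each library labelled sibling (sib) or line 207 (207). The red segment, Solyc08g079100, is 11.9% to 15.8% of the total in labelled siblings and is a thin strip in line 207 replicate 2 only.

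YABBY genes act in a network with other regulators of organ polarity, carpels and meristems, and lists of those regulators were drawn from words in the deposited descriptions. Of 103 genes in these lists, 62 were tested (limma). Of these, 2 were higher in labelled line 207, where 5.01% of all tested genes were, and 0 were lower, where 5.04% were. The authors' deposited table calls 6 of the 29 list genes to which it gives a q under 1, against 28.4% of all such genes. The median log2 difference of the 62 was -0.33, against -0.087 over all tested genes.

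Both genes that passed rose by label. Solyc02g071730, described as the MADS-box factor AGAMOUS, which in Arabidopsis specifies stamens and carpels and acts upstream of CRABS CLAW, was at 16.7, 21.9 and 24.4 FPKM in labelled siblings and at 60.6, 64.5 and 90.6 FPKM in labelled line 207. The groups lay far apart, and the log2 difference was 1.72 ± 0.24 (SE; limma adjusted p = 0.00877). Solyc11g068950 (BEL1-like homeodomain protein 1), of a class whose products pair with KNOX proteins, was at 44.5, 39.6 and 38.5 FPKM against 81.9, 98.7 and 87.8 FPKM. It was 2.19-fold higher in labelled line 207 (log2 difference 1.11 ± 0.16 (SE), limma adjusted p = 0.00979). Leaving out any 1 library kept both calls, with limma adjusted p no higher than 0.0348 and 0.0434.

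In the other lists no gene passed. The class III HD-ZIP genes promote the upper (adaxial) side of organs, opposite to YABBY genes, and 0 of 9 tested passed. The one with the smallest p, Solyc02g024070, was at 18.6, 15.8 and 16.8 FPKM in labelled siblings and at 0.0674, 9.76 and 5.76 FPKM in labelled line 207 (adjusted p = 0.175). Its groups did not overlap. Without line 207 replicate 3, Solyc11g069470 of this list passed as lower (log2 difference -3.06, adjusted p = 0.0367). With all libraries it was at 8.16, 8.28 and 5.82 FPKM against 0.000375, 0.00446 and 11.8 FPKM (adjusted p = 0.319). Of the 4 tested auxin response factors 3 and 4, abaxial regulators in Arabidopsis, 0 passed, and Solyc11g069190 had the smallest p, at 17.1 ± 4.45 against 13.1 ± 2.08 FPKM (SD, n = 3; limma adjusted p = 0.544). LEUNIG and SEUSS are corepressors that bind YABBY proteins in Arabidopsis. Only 1 of 5 such genes was tested, the LEUNIG gene Solyc03g006390 (adjusted p = 0.45), and its values ran from near 0 to 9.59 FPKM. The remaining 15 tested KNOX and BEL genes did not pass, among them Solyc07g007120 (homeobox protein knotted-1-like 3) at 95.2 ± 15.1 against 145 ± 24.5 FPKM (SD, n = 3; limma adjusted p = 0.109), a gene that passed when libraries were scaled to equal sums (adjusted p = 0.0184). Lower on average were Solyc08g041820, of the same description, at 32.7 ± 1.78 against 16.8 ± 9.46 FPKM (SD, n = 3; limma adjusted p = 0.139), and Solyc04g077210 (knotted-like homeobox protein), at 13.1 ± 7.48 against 5.12 ± 2.29 FPKM (SD, n = 3; limma adjusted p = 0.329). The authors' deposited table puts Solyc07g007120 at a q of 0.00788, Solyc08g041820 at 0.0533 and Solyc04g077210 at 0.00964.

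Of 5 tested WUSCHEL and CLAVATA genes 0 passed, and Solyc04g078650 (WUSCHEL-related homeobox-containing protein 4) was nearest, at 23.5, 15.6 and 14.6 FPKM against 3.30, 10.3 and 7.81 FPKM (adjusted p = 0.127). Of 12 tested TCP genes, growth regulators of leaf and flower margins, 0 passed. Solyc08g080150 was at 25.6, 22.6 and 18.6 FPKM against 9.17, 7.06 and 11.8 FPKM (adjusted p = 0.0569). Of 12 tested growth-regulating factors 0 passed, and Solyc04g077510 was at 131, 268 and 197 FPKM against 104, 103 and 101 FPKM (adjusted p = 0.0788). The authors' deposited table calls both, with q of 0.009 and 0.000439. Summed over its 13 genes, the growth-regulating factor list was at 219 to 344 FPKM in labelled siblings and 146 to 170 FPKM in labelled line 207. These sums did not overlap, but Solyc04g077510 made up most of each, so they mainly follow that gene. Taken singly, 33.2% of all tested genes had groups that did not overlap. The tested genes of this list had a median log2 difference of -0.60, against -0.087 over all tested genes. Without sibling replicate 1, limma passed 4 partner genes, adding Solyc04g077510 (adjusted p = 0.0162) and the TCP gene Solyc01g103780 (adjusted p = 0.0417). Of the style and carpel factors 1 of 5 was tested, the Stylish gene Solyc11g064800, at 3.60, 13.2 and 9.13 FPKM against 20.0, 24.1 and 11.9 FPKM (adjusted p = 0.221). No description held KANADI, and the 1 gene in the AS1 and AS2 list was at 0 in all libraries.

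**Figure D5:**
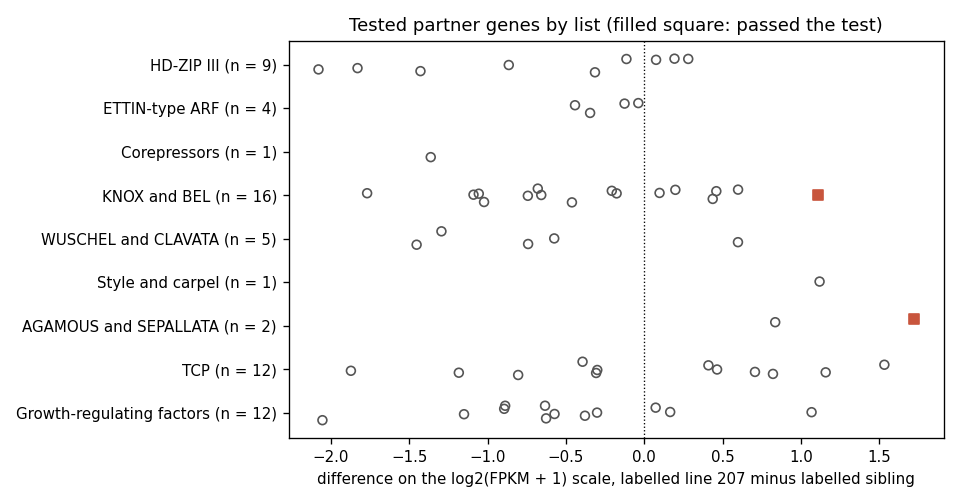
Difference between labels on the log2(FPKM + 1) scale (horizontal axis, labelled line 207 minus labelled sibling) for the 62 tested partner genes, 1 point a gene, by list (vertical axis, with the number tested). Filled squares are the 2 genes that passed, both right of 0 (1.11 and 1.72).

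The genes whose profile was most like that of Solyc08g079100 differed less between the labels than it did, with log2 differences from -1.92 to -0.34. Likeness was the Pearson correlation of log2(FPKM + 1) over the 6 libraries, given as a description, since the 6 points fall into the labelled groups. The 5 most alike were Solyc06g051130 (transferase family protein), Solyc01g087120 (F1-ATP synthase delta subunit), Solyc01g094650 (Protein PAIR1), Solyc02g030130 (subtilisin-like serine protease) and Solyc01g007910 (succinyl-CoA ligase), with r from 0.996 to 0.997. All 5 were lower in each labelled line 207 library than in any labelled sibling, with replicate 2 the highest of the labelled line 207 libraries. This follows from choosing them by likeness to Solyc08g079100 and is not a further result. The F1-ATP synthase gene was at 283, 275 and 280 FPKM against 206, 245 and 212 FPKM, a far smaller difference than that of Solyc08g079100. Solyc02g030130 also had a near-zero value in line 207 replicate 3, at 4.85, 3.46 and 4.45 FPKM against 0.00369, 1.62 and 0.000124 FPKM.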

How the data were processed

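RNA of 6 libraries was sequenced, 3 labelled line 207 and 3 labelled sibling; groups and replicate numbers come from the labels. The series design text calls the replicates biological. The deposited table of the authors gives each gene 1 value in each library. These were taken as FPKM, since they are fractional with unequal sums and since, per the submitters' processing notes, TopHat 1.3.2 and Cufflinks were used. No source used here states the unit, the build, the annotation or the scaling. It also holds the authors' deposited p-value and q-value per gene, with 1 for a gene without a test. Of 34727 rows, 4 without values were left out. The deposited log2 fold changes were not used.

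Differences were tested with limma 3.58.1 (R 4.3.3) on log2(FPKM + 1), with a prior that follows the mean level, over genes of at least 1 FPKM in 3 or more libraries, with Benjamini-Hochberg adjustment and a threshold of 0.05. This scale understates changes of low genes. The script was tested on simulated data. Members, lists and tests were chosen with earlier results of these data known. Genes named were all members, in each partner list those called or else the one with the smallest p, the target, and the 5 genes most alike in profile to each of 2 members. Marker genes, adjacent genes and further examples were added after their values were seen. Depth is known only in relative terms, taken as the most frequent ratio of low values to sibling replicate 1, so no counting intervals are given. Whole reads were not recovered.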

Additional observations from a re-analysis of the deposited data

How the results depend on the processing

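The 6 tested members other than Solyc08g079100 stayed short of the threshold in all 90 values over the 15 other limma settings (other pseudocounts, filters and scalings, no trend, replicate block, each library left out; scaling to equal library sums was chosen after seeing the data), with a lowest adjusted p of 0.0894. The count called was 0 in each, and 0 by the authors' deposited q. The sign changed for Solyc06g073920 (0.11 with quantile normalization, 0.25 with equal library sums, -0.28 to 0.048 with a library left out) and for Solyc05g012050 (-0.092 to 0.97 with a library left out, the lowest without sibling replicate 1). The log2 difference of Solyc08g079100 was -7.59 with a pseudocount of 0.1, -3.72 with a pseudocount of 5, and -6.53 to -4.76 with a library left out. Over all genes, 894 passed with the replicate block and 2722 by the authors' deposited q, against 1585. With a library left out, the count was 666 to 1194, lowest without line 207 replicate 2, in fits that also rest on fewer samples. Replicate numbers did not pair the samples (correlation of deviations 0.004, -0.00806 and -0.0105 for the same-numbered libraries), and the block changed no call of a member. The partner lists gave 2 to 4 calls with a library left out and 6 by the authors' deposited q, and the TCP gene Solyc08g080150 passed among genes averaging 5 FPKM or more (adjusted p = 0.0426). The gene next to Solyc08g079100, Solyc08g079110, had a log2 difference of 0.029, of -0.0040 with quantile normalization, and of -0.14 to 0.24 with a library left out. Median-ratio and quantile scaling left the median difference of all genes at -0.058 and -0.034, and equal library sums moved it to 0.20. The shallower labelled line 207 libraries limit low values most.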

Other observations

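The genes adjacent to Solyc08g079100 by identifier were read after its values were seen. Solyc08g079090 (Laccase-22), of a family of copper oxidases known for lignin formation, was at 83.8, 38.6 and 30.9 FPKM in labelled siblings and at 14.6, 14.1 and 13.0 FPKM in labelled line 207. The groups did not overlap, and the gene passed as lower (log2 difference -1.67 ± 0.38 (SE), limma adjusted p = 0.0372). The call was lost without sibling replicate 2 or any 1 of the labelled line 207 libraries (adjusted p up to 0.101), with no filter (adjusted p = 0.0849), without the trend (adjusted p = 0.0709), with the replicate block (adjusted p = 0.057) and with equal library sums (adjusted p = 0.078). Solyc08g079110 (Pentapeptide repeat), on the other side, was at 22.4, 16.9 and 26.3 FPKM against 25.9, 25.4 and 16.1 FPKM, and its groups overlapped (limma adjusted p = 0.961).

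The profile of the most abundant member, Solyc06g073920, cut across the labels, with sibling replicate 1 and line 207 replicate 3 lowest. Of the 5 genes most like it over the 6 libraries, the most abundant over all libraries was Solyc06g069760, described as a Dof zinc finger protein, a plant-specific class of transcription factor. It was at 24.3, 48.2 and 49.97 FPKM in labelled siblings and at 36.8, 47.3 and 25.9 FPKM in labelled line 207 (Pearson r = 0.989 over 6 libraries, a description). The others were Solyc05g052670, Solyc07g018090, Solyc11g011760 and Solyc02g068060.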
